A study of Mus musculus with 9 samples.

Results

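This is an account of 34 genes of glycolysis and of the transcriptional response to low oxygen, out of 45777 genes in a read count table of tumor-infiltrating CD45+ cells. The genes were named as a list, and comprise 21 genes of glucose import, glycolysis and lactate export and 13 other genes tied to hypoxia-inducible factor (HIF). The list was drawn up with results for these same libraries already known, so all member values are given as a description and none as independent support. All 34 members had enough counts to be tested, among 16373 genes that passed the filter on low counts. WEHI-164, a mouse fibrosarcoma cell line, was grafted under the skin of BALB/c mice, and cells bearing CD45, the pan-leukocyte surface antigen, were positively selected with magnetic beads from tumors taken 7 days after treatment. The groups were doxorubicin + ADU-S100 (called the combination here), doxorubicin alone and control vehicle, with 3 libraries each. Doxorubicin, a DNA-intercalating chemotherapy drug, was injected into the tumor weekly at 5 mg/kg, and ADU-S100, a cyclic dinucleotide that activates the innate immune adaptor STING, was injected into the tumor at 25 µg a dose. No engineered allele is described for these grafts. None of the 9 libraries came from an ADU-S100-only group, so the effect of that drug alone cannot be seen here. The age and sex of the mice, and whether each library came from 1 mouse, are not given in the sources used here, so the p-values measure the spread between these libraries.

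Glycolysis breaks glucose down to pyruvate in the cytosol, and cells short of oxygen, or activated immune cells, pass much of that pyruvate on to lactate. HIF is a transcription factor made of an oxygen-labile alpha subunit and a stable partner. When oxygen is present, prolyl hydroxylases of the Egln family mark the alpha subunit for destruction. When oxygen falls, the subunit persists, binds short DNA motifs near its targets and raises genes of glucose use, blood vessel growth and mitochondrial turnover. In myeloid cells the same program is also switched on by inflammatory signals, and HIF activity is set largely at the level of the protein, so the mRNA of the alpha subunit is not a measure of it.

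The sequences that HIF recognizes contain ACGTG or GCGTG, and the promoters of several members are shown because these short runs stand close to their start sites. RefSeq promoters of build GRCm38 were found for 32 of the 34 members, with Bnip3l and Ndrg1 the ones not matched. The 250 bases before each start site were searched on both strands for ACGTG and GCGTG. Of the 32 members, 28 (87.5%) held at least 1 of the motifs before a start site, against 58.5% of 11622 tested genes with a promoter entry and 41.5% of all 27025 genes in the promoter table. ACGTG alone was found for 18 members (56.2%), against 24.1% of tested genes and 18.5% of all genes. Over single promoters, 78.3% of 46 member promoters, 52.7% of 14789 promoters of tested genes and 38.6% of all 32851 promoters held either motif. CpG dinucleotides, part of both motifs, had a median of 13.5 per member promoter, 14 per promoter of tested genes and 6 per promoter of the whole table. The list was made up of glycolysis and HIF-response genes, so these shares describe that choice and are not a result of these libraries. Each stretch below runs 5′ to 3′ on the strand of its gene, with 15 bases before its earliest match and 5 after its last. Capitals mark either motif, or its reverse complement where the match is on the other strand. The palindrome in Ldha and Bnip3 matches on both strands, and the longer run of capitals in Higd1a holds a pair of overlapping matches.
Slc2a1: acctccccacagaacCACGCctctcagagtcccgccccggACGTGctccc
Pgk1: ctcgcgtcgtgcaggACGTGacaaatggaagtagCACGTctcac
Ldha: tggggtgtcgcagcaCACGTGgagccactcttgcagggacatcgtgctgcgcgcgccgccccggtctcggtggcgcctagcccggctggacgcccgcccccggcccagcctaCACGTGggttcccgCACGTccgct
Bnip3: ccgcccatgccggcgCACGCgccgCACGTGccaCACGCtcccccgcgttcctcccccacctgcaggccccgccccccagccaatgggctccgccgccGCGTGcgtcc
Egln3: tcatgtgcatctcagACGTGagatc
Higd1a: aagccggtctagcctGCGTGCGTGgcgtt
The Slc2a1 stretch is chr4:119108669-119108718 on the plus strand, that of Pgk1 is chrX:106186935-106186978 on the plus strand and that of Ldha is chr7:46845644-46845779 on the plus strand, which lies before an internal start site within the annotated gene. The Bnip3 stretch is chr7:138909532-138909638 on the minus strand, that of Egln3 is chr12:54204094-54204118 on the minus strand and that of Higd1a is chr9:121857853-121857881 on the minus strand. A match of these letters is not evidence that HIF bound there in these cells.

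Library totals were 50110494 to 69456603 counts, and member counts ran from 128 to 274825 per library. Levels are given as CPM, counts scaled to library size, after TMM scaling, an adjustment that aligns the bulk of genes between libraries, with factors of 0.815 to 1.098. Ptprc, which encodes CD45, was present in all libraries at 189 to 627 CPM. Transcripts of fibroblasts and sarcoma cells were present as well: all 26 listed markers were detected in all 9 libraries. Their mean log2 CPM was 2.70, 3.05 and 6.12 in the combination libraries (replicates 1, 2 and 3, the order used throughout), 4.80, 2.65 and 4.64 in the doxorubicin libraries and 2.68, 5.57 and 3.26 in the control libraries. Mitochondrially encoded RNA ranged from 1.26% of counts (doxorubicin replicate 2) to 13.1% (combination replicate 1). Each library mixes cell types, so more cells of a glycolytic type and more glycolytic RNA per cell cannot be told apart.

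Most members had higher mean levels in both treated groups than in control, by less than 2-fold and with no adjusted p under 0.05. In combination versus control, 19 of 21 glycolysis members and 11 of 13 other HIF-response members had a positive log2 fold change, where 56.9% of all genes tested did. The median log2 fold change was 0.36 for the glycolysis members, 0.48 for the other HIF-response members and 0.06 for all genes tested. In doxorubicin versus control the counts were 20 of 21 and 13 of 13, beside 48.9% of all genes, and the medians were 0.28, 0.27 and -0.01. In combination versus doxorubicin the counts were 17 of 21 and 10 of 13, beside 58.6% of all genes, with medians of 0.10, 0.20 and 0.07. These comparisons share libraries pairwise and are not independent of each other.

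No member was called in any of the 3 comparisons. By edgeR's quasi-likelihood test, 0 of 34 members had an adjusted p under 0.05 (Benjamini-Hochberg over 16373 genes, with 0% of all genes called), and the members' adjusted p was 0.948 to 0.988, 0.999 and 1 in the 3 comparisons. At the study's thresholds (more than 2-fold, and an unadjusted p under 0.05), edgeR also gave 0 members, beside 1.46% of all genes called higher and 0.708% lower in combination versus control, and 0.867% and 0.348% in combination versus doxorubicin. In doxorubicin versus control these shares were 0.36% and 0.0916%. At an unadjusted p under 0.05 alone, edgeR gave 8 members higher in the combination than in control (background 2.83% of genes) and 0 lower (background 1.61%). The 8 were Slc2a1, Tpi1, Pgk1, Ldha, Ndrg1, Egln1, Egln3 and Higd1a. The count depends on the scaling: with library size only it was 1 (Higd1a, background 1.27%). DESeq2 gave 12 members at that level (background 3.28%) and limma-voom with quality weights 10 (background 6.69%). Both gave 0 members at an adjusted p under 0.05, where DESeq2 called 27 of 16373 genes and limma-voom 0. In combination versus doxorubicin the edgeR count was 1 (Higd1a, background 1.97%) with 0 lower (background 0.788%), and in doxorubicin versus control it was 1 (Slc2a1, background 0.513%) with 0 lower (background 0.195%). DESeq2 gave the same genes (background 2.26% and 0.739%). Limma-voom gave Vegfa higher (background 6.38%) and Adm lower (background 2.65%) in combination versus doxorubicin. It gave 6 members higher in doxorubicin than in control (Aldoc, Ndrg1, Pfkl, Slc2a1, Egln3 and Car9, background 1.96%). With library size only, Higd1a was no longer among the genes at that level against doxorubicin, and 0 members were (background 0.855%).

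**Figure D1:**
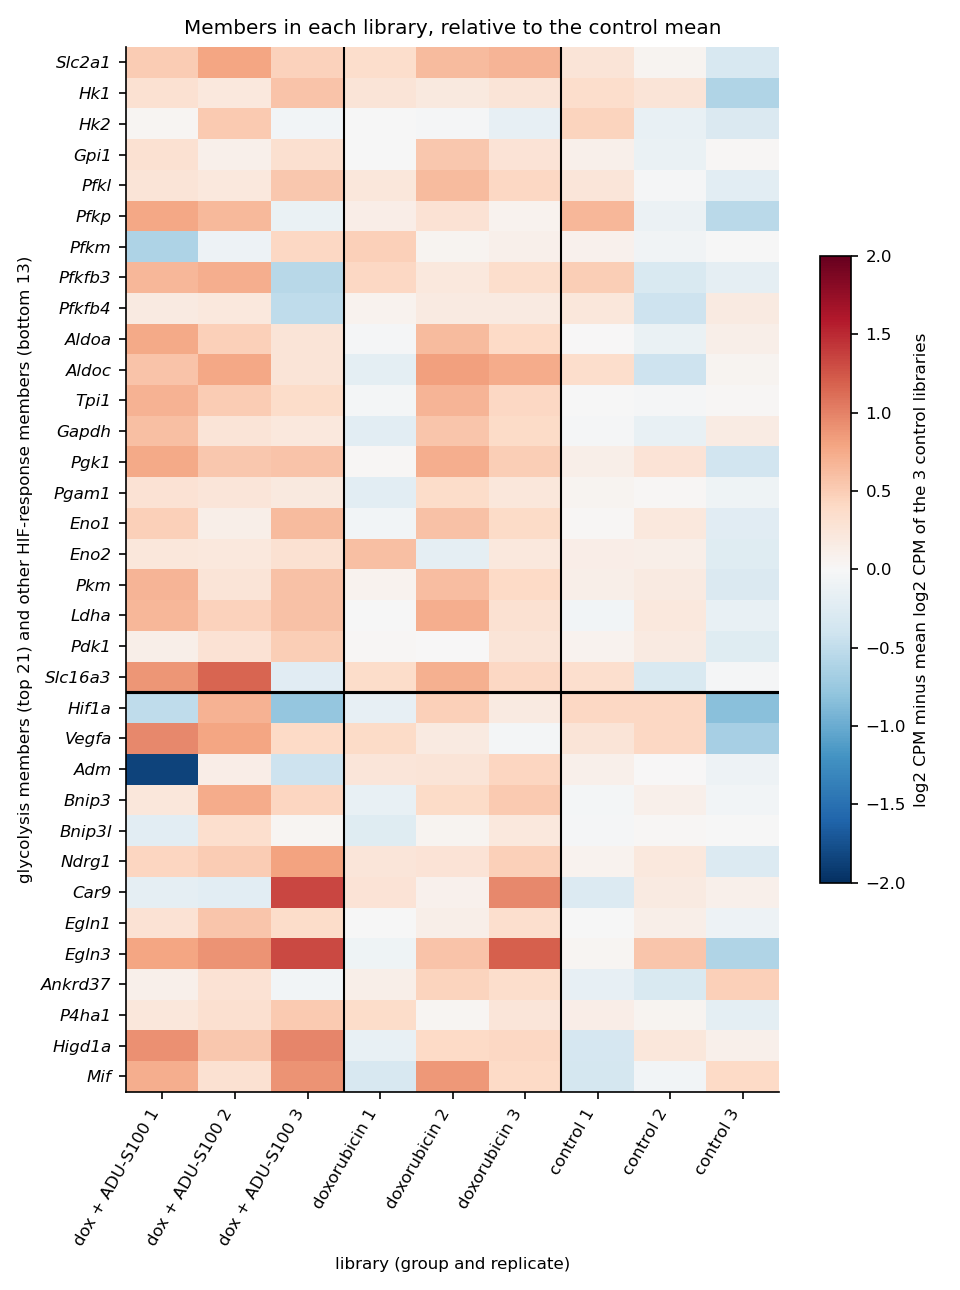
Heat map of the 34 members (rows, glycolysis members above the line and other HIF-response members below it) in the 9 libraries (columns). Color is log2 CPM minus the mean log2 CPM of the 3 control libraries; the 3 combination libraries are mostly red across the glycolysis rows, doxorubicin replicate 1 stays near the control level and control replicate 3 is mostly blue.

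Whole groups stood apart for 15 members in combination versus control. For 9 glycolysis members and 6 other HIF-response members, all 3 combination libraries lay above all 3 control libraries, which held for 4.39% of all genes tested. No member had all 3 combination libraries below control (3.95% of genes did). This count depends on how libraries are scaled, and separations of single genes given below are those with TMM scaling unless another scaling is named. It was 15 with RLE factors as well, 5 with library size only (Aldoa, Tpi1, Pgk1, Ldha and Higd1a, beside 1.94% of genes) and 3 with library size counted without mitochondrial genes (Slc2a1, Aldoa and Tpi1, beside 2.01%). With library size only, the median of all genes itself moved to -0.11, and the glycolysis median stood 0.28 above it, against 0.30 above it with TMM. The corresponding distance for the other HIF-response members was 0.42 under both scalings.

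At the entry to the pathway, Slc2a1, the glucose transporter GLUT1, was higher in both treated groups. It had 462, 559.7 and 448 CPM in the combination libraries, 416, 504 and 523 CPM in the doxorubicin libraries and 390.4, 339 and 259 CPM in the control libraries. Every library of either treated group lay above every control library with TMM scaling. With library size only this held for doxorubicin but not for the combination. The log2 fold change was 0.57 (SE 0.22) in combination versus control, 0.55 (SE 0.22) in doxorubicin versus control and 0.03 (SE 0.21) in combination versus doxorubicin. Slc2a1 was 1 of 4 members whose doxorubicin libraries all lay above control, with Slc16a3, Adm and Ndrg1, where 1.77% of all genes did. No member had all doxorubicin libraries below control (2.63% of genes did).

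Hexokinase, which traps glucose as glucose 6-phosphate, did not separate the groups. Hk2, the inducible form, had 118, 166 and 111 CPM in the combination libraries, 114, 114 and 102 CPM in the doxorubicin libraries and 156, 104 and 94.6 CPM in the control libraries. The groups overlapped, and control replicate 1 exceeded all treated libraries but combination replicate 2. Hk1, the housekeeping form, ran at 117 to 149 CPM in the combination, 116 to 121 CPM in doxorubicin and 66.1 to 128 CPM in control. Control replicate 3 was the lowest library for both Hk1 and Hk2. Gpi1, which isomerizes glucose 6-phosphate to fructose 6-phosphate, ranged over 915 to 1069 CPM in the combination, 849 to 1245 CPM in doxorubicin and 784 to 921 CPM in control, with overlapping groups.

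Phosphofructokinase, the committed step, is encoded by the liver (Pfkl), platelet (Pfkp) and muscle (Pfkm) genes. Pfkp had 316, 288 and 169 CPM in the combination libraries, 202, 224 and 193 CPM in the doxorubicin libraries and 290.3, 169.9 and 126 CPM in the control libraries. Combination replicates 1 and 2 and control replicate 1 were high and the others low, so the groups overlapped. Pfkl ranged over 206 to 260.5 CPM in the combination, 208 to 275 CPM in doxorubicin and 154 to 209.9 CPM in control. Within each library, the ratio of Pfkp to Pfkl counts was 1.49, 1.40 and 0.647 in the combination, 0.971, 0.813 and 0.812 in doxorubicin and 1.38, 0.971 and 0.817 in control. The lowest of the 9 ratios was in combination replicate 3, the library with the highest fibroblast and sarcoma mean. Pfkm was low in all libraries, at 9.07 to 18.5 CPM in the combination, 14.5 to 19.5 CPM in doxorubicin and 13.2 to 14.9 CPM in control.

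Pfkfb3 and Pfkfb4 make fructose 2,6-bisphosphate, the activator of phosphofructokinase. Pfkfb3 had 158, 166 and 67.8 CPM in the combination libraries, 134, 116 and 127 CPM in the doxorubicin libraries and 140.3, 81.0 and 88.1 CPM in the control libraries. The combination libraries held both the highest values and the lowest, that of replicate 3. Pfkfb4 ranged over 37.4 to 62.0 CPM in the combination, 55.9 to 60.6 CPM in doxorubicin and 40.1 to 62.6 CPM in control, and its lowest library was again combination replicate 3. Neither gene differed between groups by more than the replicates of the combination differed among themselves.

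The enzymes that split the sugar stood higher in the combination than in control. Aldoa, the main aldolase here, had 2791, 2305 and 1970.4 CPM in the combination libraries, 1621, 2554 and 2168 CPM in the doxorubicin libraries and 1649.9, 1511 and 1797 CPM in the control libraries. Tpi1, triose phosphate isomerase, had 1484, 1294 and 1174 CPM in the combination libraries, 887, 1461 and 1220.4 CPM in the doxorubicin libraries and 907, 899 and 932 CPM in the control libraries. For both, all combination libraries lay above all control libraries, while doxorubicin replicate 1 lay at or just below the control values. The log2 fold changes in combination versus control were 0.51 (SE 0.25) for Aldoa and 0.53 (SE 0.23) for Tpi1. Both separations held with TMM, RLE, library size only and library size without mitochondrial genes. Aldoc, the brain-type aldolase, was far lower, at 24.2, 27.8 and 19.4 CPM in the combination libraries, 14.1, 28.7 and 27.3 CPM in the doxorubicin libraries and 20.8, 12.2 and 16.9 CPM in the control libraries, with overlapping groups.

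The 6 enzyme genes from glyceraldehyde 3-phosphate to pyruvate all had positive log2 fold changes in combination versus control and in doxorubicin versus control. None had an adjusted p under 0.05 or passed the study's thresholds, and by edgeR only Pgk1 had an unadjusted p under 0.05 (0.0473 in combination versus control). Gapdh, often used as a reference gene, had 1458, 1155 and 1114 CPM in the combination libraries, 835, 1424 and 1262 CPM in the doxorubicin libraries and 949, 871 and 1086 CPM in the control libraries. Pgk1, the earlier ATP-producing step, had 1590.5, 1374 and 1409 CPM in the combination libraries, 961, 1558 and 1328 CPM in the doxorubicin libraries and 1023, 1140.4 and 724 CPM in the control libraries. Pkm, the later one, had 3942, 2933 and 3701 CPM in the combination libraries, 2590.3, 3776 and 3233 CPM in the doxorubicin libraries and 2661, 2778 and 2023 CPM in the control libraries. In each of these 3 genes the combination libraries all lay above control, and doxorubicin replicates 2 and 3 also did. Log2 fold changes in combination versus control were 0.36 (SE 0.25) for Gapdh, 0.60 (SE 0.26) for Pgk1 and 0.50 (SE 0.26) for Pkm.

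Pgam1, phosphoglycerate mutase, had 766, 736 and 716 CPM in the combination libraries, 541, 806 and 729 CPM in the doxorubicin libraries and 648, 638 and 588 CPM in the control libraries. Its combination libraries lay above control by a narrow margin, with a log2 fold change of 0.24 (SE 0.20). Eno1, the ubiquitous enolase, had 1733, 1345 and 1916 CPM in the combination libraries, 1189, 1855 and 1614 CPM in the doxorubicin libraries and 1261, 1435 and 1058 CPM in the control libraries. Its combination and control groups overlapped through combination replicate 2. Eno2, the neuronal enolase, had 65.2, 64.2 and 68.7 CPM in the combination libraries, 84.1, 49.2 and 64.0 CPM in the doxorubicin libraries and 60.6, 60.4 and 46.7 CPM in the control libraries, and its combination libraries all lay above control by a margin small beside the spread in doxorubicin. Near-identical copies of some of these genes, Eno1b, Pgam1-ps2 and Pgk1-rs7, have counts of their own, and whether reads were split between copy and parent was not tested. Adding each to its parent gave log2 ratios of means in combination versus control of 0.44 for Eno1, 0.28 for Pgam1 and 0.61 for Pgk1, against 0.41, 0.24 and 0.60 for the parents alone.

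The fate of pyruvate is set by lactate dehydrogenase, by the kinase that restrains pyruvate dehydrogenase and by lactate export. Ldha, which turns pyruvate into lactate, had 2219.6, 1917 and 2100.3 CPM in the combination libraries, 1392, 2316 and 1729.6 CPM in the doxorubicin libraries and 1336, 1605 and 1263 CPM in the control libraries. All combination libraries lay above all control libraries, and doxorubicin replicate 2 was the highest of the 9. The log2 fold change was 0.57 (SE 0.25) in combination versus control and 0.37 (SE 0.25) in doxorubicin versus control. Pdk1, the kinase that inhibits pyruvate dehydrogenase, had 46.7, 52.6 and 60.9 CPM in the combination libraries, 43.7, 43.5 and 51.5 CPM in the doxorubicin libraries and 45.3, 48.8 and 36.4 CPM in the control libraries. Its groups overlapped, and its log2 fold change in combination versus control was 0.30 (SE 0.18).

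Slc16a3, the lactate exporter MCT4, had 417, 502 and 193 CPM in the combination libraries, 291, 369 and 299 CPM in the doxorubicin libraries and 282, 183 and 221 CPM in the control libraries. Combination replicates 1 and 2 were the highest of the 9 libraries and replicate 3 lay among the control values, while all doxorubicin libraries lay above control. Slc16a1, the related transporter MCT1 and not a member, was highest in that library, with 39.8, 47.0 and 133 CPM in the combination libraries, 50.1, 53.3 and 49.3 CPM in the doxorubicin libraries and 39.4, 80.5 and 42.5 CPM in the control libraries. The within-library ratio of Slc16a3 to Slc16a1 counts was 10.5, 10.7 and 1.45 in the combination, 5.81, 6.92 and 6.06 in doxorubicin and 7.17, 2.27 and 5.19 in control. The lowest ratios belonged to combination replicate 3 and control replicate 2, which had the highest fibroblast and sarcoma means. Without combination replicate 3, the log2 fold change of Slc16a3 versus control was 1.01, against 0.70 (SE 0.34) with it, and it then passed the study's thresholds.

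**Figure D2:**
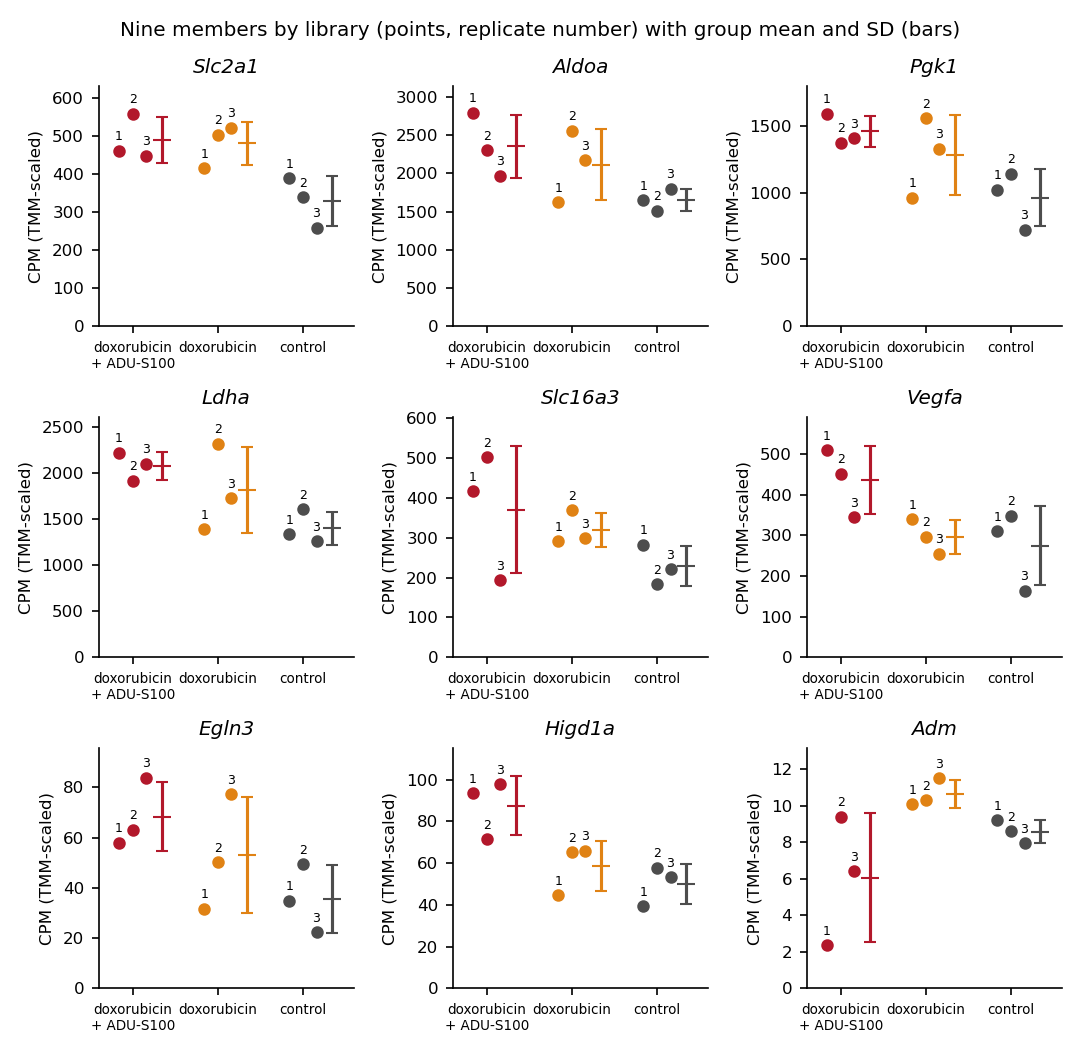
Levels of 9 members by library in CPM (TMM-scaled, axes from 0), with combination, doxorubicin and control side by side; points carry the replicate number and the bars are mean and SD of 3 libraries. Aldoa, Pgk1, Ldha, Egln3 and Higd1a have all combination points above all control points, Slc16a3 has 1 low combination point at 193 CPM, and Adm has 1 at 2.36 CPM.

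Per kilobase of transcript, the members spanned a wide range of levels. Taking the longest principal protein-coding transcript of each gene, combination libraries averaged 1559 CPM per kilobase for Aldoa, 1449.5 for Pkm and 1177 for Ldha. Control libraries averaged 1094, 1023 and 794 CPM per kilobase for the same genes. Among transporters, Slc2a1 averaged 150.4 CPM per kilobase in the combination and 101 in control, against 2.68 and 2.93 for Slc2a3, the GLUT3 transporter. Among the hexokinases, Hk3, a myeloid form outside the list, averaged 97.2 CPM per kilobase in the combination and 64.8 in control, above Hk1 (33.9 and 27.3) and Hk2 (23.9 and 21.4). Which isoform was expressed was not determined, so these per-length levels are approximate.

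Summed over the list, the 21 glycolysis members took 1.55, 1.45 and 1.79% of all counts in the combination libraries, 1.38, 1.79 and 1.73% in the doxorubicin libraries and 1.40, 1.38 and 1.17% in the control libraries. All combination shares lay above all control shares, and doxorubicin replicate 1 lay just below control replicate 2. With mitochondrial genes left out of the totals, the glycolysis shares were 1.79, 1.505 and 1.83% in the combination and 1.44, 1.498 and 1.22% in control. Combination replicate 2 then barely exceeded control replicate 2. The 13 other HIF-response members took 0.222, 0.270 and 0.315% in the combination, 0.239, 0.248 and 0.281% in doxorubicin and 0.230, 0.249 and 0.184% in control, and these shares overlapped. Across single genes, the highest library was combination replicate 1 for 6 of 21 glycolysis members, doxorubicin replicate 2 for 5 and combination replicate 2 for 4. These libraries were highest for 16%, 9.29% and 12.2% of all genes tested. The lowest library was control replicate 3 for 11 of 21 (52.4%), where it was lowest for 8.83% of all genes tested. Leaving out control replicate 3 gave a glycolysis median of 0.24 and an other HIF-response median of 0.40 in combination versus control. The number of members at an unadjusted p under 0.05 by edgeR was then 2 (background 3.2%), against 8 with it. It was 4 without control replicate 1 (background 2.78%) and 5 without control replicate 2 (background 2.8%). Without combination replicate 2 it was 3 higher (background 2.06%) and 1 lower (Adm, background 3.98%). Without doxorubicin replicate 1 it was 10 (background 2.87%). Each omission also leaves fewer libraries to estimate the spread.

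Hif1a, the oxygen-labile alpha subunit, had 153, 353 and 128 CPM in the combination libraries, 195, 304 and 247 CPM in the doxorubicin libraries and 291, 292 and 122 CPM in the control libraries. High and low libraries occurred in all 3 groups, and its log2 fold changes were -0.15 (SE 0.45) in combination versus control and 0.08 (SE 0.45) in doxorubicin versus control. Epas1, the HIF-2 alpha subunit and not a member, had 9.42, 15.7 and 8.50 CPM in the combination libraries, 26.8, 21.8 and 11.2 CPM in the doxorubicin libraries and 25.8, 26.8 and 24.97 CPM in the control libraries. Its combination libraries all lay below control, with a log2 fold change of -1.21 (SE 0.34) that passed the study's thresholds by edgeR (unadjusted p 0.00649, adjusted p 0.948).

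The prolyl hydroxylases that mark HIF for destruction are themselves HIF targets. Egln3, the most inducible of them, had 57.9, 63.1 and 83.8 CPM in the combination libraries, 31.6, 50.3 and 77.3 CPM in the doxorubicin libraries and 34.8, 49.4 and 22.3 CPM in the control libraries. All combination libraries lay above all control libraries with TMM or RLE factors, but not under the scalings by library size. The doxorubicin libraries spread across both groups. Its log2 fold change of 0.94 (SE 0.37) in combination versus control was the largest of the 34 members in any comparison. Egln1, the main oxygen sensor, had 155, 187 and 163 CPM in the combination libraries, 126, 137 and 159.6 CPM in the doxorubicin libraries and 126, 137 and 118 CPM in the control libraries, with all combination libraries above control except under the scalings by library size. The ratio of Egln3 to Egln1 counts was 0.375, 0.338 and 0.513 in the combination, 0.252, 0.367 and 0.484 in doxorubicin and 0.276, 0.362 and 0.189 in control, and these groups overlapped.

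**Figure D3:**
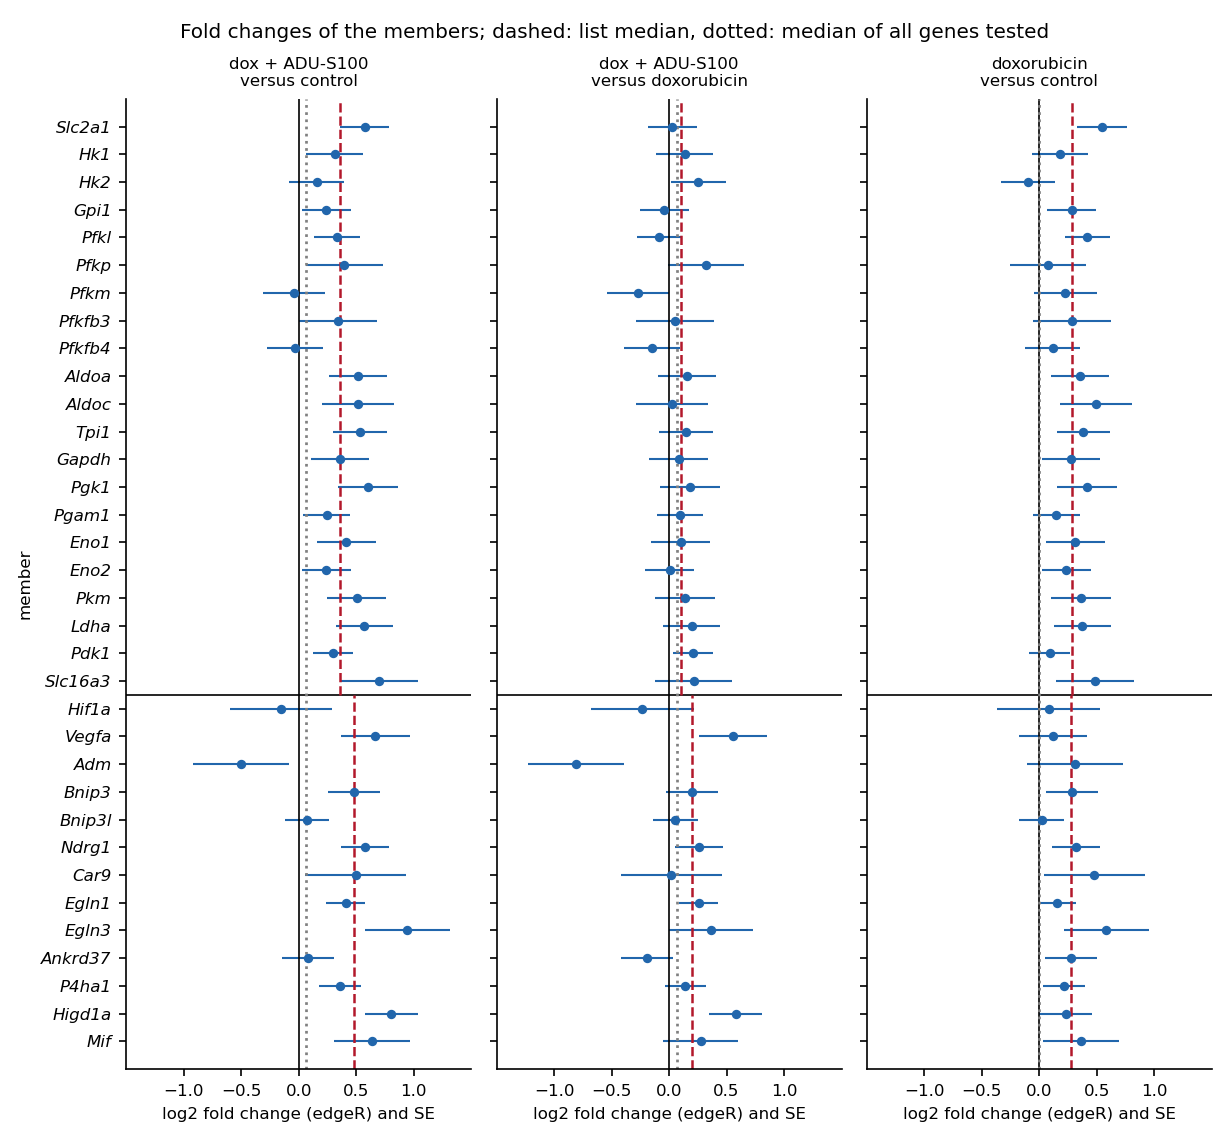
Log2 fold change with SE (edgeR) of each member in combination versus control, combination versus doxorubicin and doxorubicin versus control, from left to right. Dashed lines are the list medians (0.36 and 0.48, then 0.10 and 0.20, then 0.28 and 0.27) and dotted lines the median of all genes tested; most points lie right of 0 in the outer panels, and no point passes 1, the 2-fold mark.

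Secreted products had log2 fold changes of both signs. Vegfa, the vascular growth factor, had 511, 453 and 345 CPM in the combination libraries, 339, 297 and 255 CPM in the doxorubicin libraries and 311, 349 and 164 CPM in the control libraries. All its combination libraries lay above all doxorubicin libraries, while combination replicate 3 overlapped control replicate 2. The log2 fold change was 0.55 (SE 0.30) against doxorubicin and 0.67 (SE 0.30) against control. Vegfa and Higd1a were the 2 members with all combination libraries above doxorubicin, where 3.53% of all genes were. With RLE factors only Higd1a was (3.38% of genes were). With library size only, no member was, and 3 lay below (Pfkfb4, Adm and Ankrd37, beside 6.45% of genes).

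Adm, the vasodilator peptide adrenomedullin, had 2.36, 9.40 and 6.42 CPM in the combination libraries, 10.1, 10.3 and 11.5 CPM in the doxorubicin libraries and 9.22, 8.59 and 7.95 CPM in the control libraries. It was the only member with all combination libraries below all doxorubicin libraries (2.63% of genes were), at a log2 fold change of -0.81 (SE 0.42), and replicate 1 was lowest by a wide margin. Without that replicate the log2 fold change was -0.48, and without replicate 2 it was -1.27. The doxorubicin libraries all lay above control, with a log2 fold change of 0.31 (SE 0.42). Mif, a cytokine with macrophage-activating activity, had 401, 299 and 452 CPM in the combination libraries, 193, 442 and 317 CPM in the doxorubicin libraries and 189.8, 233 and 318 CPM in the control libraries. Its groups overlapped, since control replicate 3 exceeded combination replicate 2.

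Among mitochondrial members, Higd1a, which supports respiratory chain function in low oxygen, gave the clearest separation. It had 93.4, 71.5 and 97.7 CPM in the combination libraries, 44.6, 65.3 and 66.0 CPM in the doxorubicin libraries and 39.3, 57.8 and 53.3 CPM in the control libraries. All combination libraries lay above all libraries of both other groups, and the means were 87.6 ± 14.0 CPM in the combination, 58.7 ± 12.2 CPM in doxorubicin and 50.1 ± 9.66 CPM in control (SD, n = 3 each). The log2 fold change was 0.80 (SE 0.23) against control and 0.58 (SE 0.23) against doxorubicin by edgeR, with adjusted p of 0.948 and 0.999. With library size counted without mitochondrial genes the separation from control was lost. The separation from doxorubicin was lost under that scaling and also with library size only.

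Bnip3 and Bnip3l encode related receptors for the removal of mitochondria. Bnip3 had 278, 399 and 322 CPM in the combination libraries, 216, 312 and 343 CPM in the doxorubicin libraries and 232, 256 and 229 CPM in the control libraries. Its combination libraries all lay above control, at a log2 fold change of 0.48 (SE 0.23). Bnip3l overlapped between groups, with 114 to 168 CPM in the combination, 112 to 153 CPM in doxorubicin and 130.5 to 135 CPM in control and a log2 fold change of 0.07 (SE 0.19) in combination versus control. The ratio of the counts of these genes within a library needs no scaling between libraries. It was 2.43, 2.37 and 2.37 in the combination, 1.93, 2.27 and 2.24 in doxorubicin and 1.78, 1.89 and 1.74 in control. The 3 groups did not overlap at all in this ratio, which was chosen with its values known and so carries no test.

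**Figure D4:**
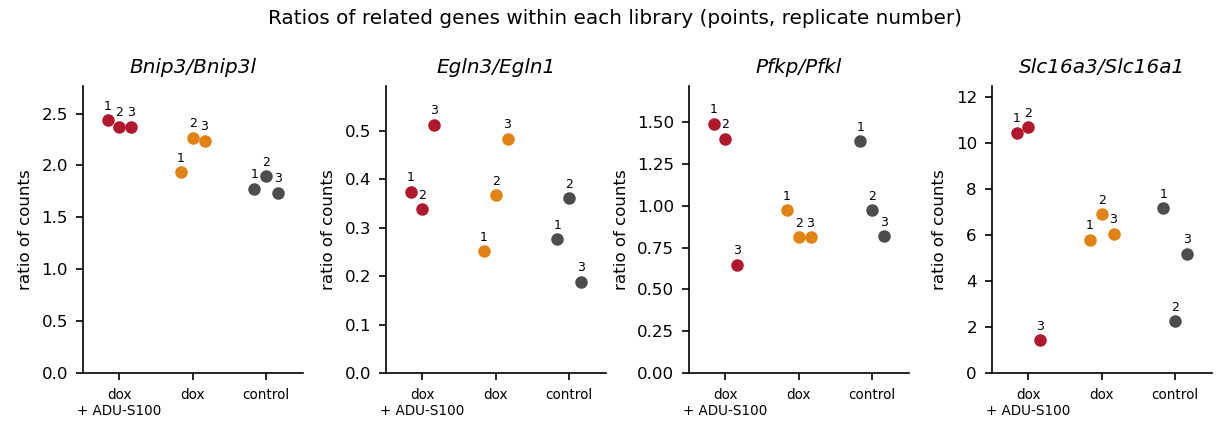
Ratios of counts of related genes within each library (axes from 0, not corrected for gene length), with combination, doxorubicin and control side by side and points carrying the replicate number. Bnip3/Bnip3l separates the 3 groups, with 2.37 to 2.43 in the combination; in the Slc16a3/Slc16a1 and Pfkp/Pfkl panels combination replicate 3 is the lowest point, at 1.45 and 0.647.

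Of the remaining targets, Ndrg1, a stress-responsive gene induced by hypoxia in many cell types, had 642, 675 and 828 CPM in the combination libraries, 563, 571 and 659 CPM in the doxorubicin libraries and 498, 549 and 392 CPM in the control libraries. All libraries of both treated groups lay above all control libraries with TMM scaling. Its log2 fold change was 0.58 (SE 0.21) in combination versus control and 0.32 (SE 0.21) in doxorubicin versus control. P4ha1, a collagen prolyl hydroxylase subunit, had 269, 289.7 and 334 CPM in the combination libraries, 297, 239 and 273 CPM in the doxorubicin libraries and 254, 240.0 and 203 CPM in the control libraries, and its combination libraries all lay above control. Its log2 fold change there was 0.36 (SE 0.18).

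Car9, the cell-surface carbonic anhydrase IX that is often used as a hypoxia marker, was low, with 7.61, 7.43 and 21.6 CPM in the combination libraries, 10.4, 9.14 and 16.7 CPM in the doxorubicin libraries and 7.09, 9.70 and 9.24 CPM in the control libraries. Replicate 3 of both treated groups was high and the other treated libraries lay within or near the control range. Without combination replicate 3 its log2 fold change versus control was -0.21, against 0.49 (SE 0.44) with it. Ankrd37, an ankyrin repeat protein gene and HIF target, had 36.8, 41.7 and 33.0 CPM in the combination libraries, 37.2, 46.6 and 43.8 CPM in the doxorubicin libraries and 30.5, 27.7 and 47.6 CPM in the control libraries. Control replicate 3 was the highest library and control replicates 1 and 2 the lowest, so the groups overlapped.

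The other HIF-response members had their highest value in combination replicate 3 for 6 of 13 genes and in combination replicate 2 for 4, where these libraries were highest for 23.8% and 12.2% of all genes. The glycolysis list was ordered differently: its mean log2 CPM was 8.41, 8.38 and 8.23 in the combination, 8.08, 8.40 and 8.30 in doxorubicin and 8.16, 7.94 and 7.82 in control. Within the combination it was lowest in replicate 3, the library richest in fibroblast and sarcoma transcripts. The mean of the other HIF-response members was 6.64, 6.95 and 6.94 in the combination, 6.53, 6.81 and 6.93 in doxorubicin and 6.48, 6.64 and 6.36 in control, and within the combination it was lowest in replicate 1.

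Summed over the 26 fibroblast and sarcoma markers, levels were 3654 to 6068 CPM in the combination, 4148 to 7564 CPM in doxorubicin and 5086 to 7737 CPM in control. Much of this sum is Fn1, fibronectin, which macrophages also express and which had 2362 to 6219 CPM. All combination libraries lay below control for Fn1 (3.95% of genes did). In combination versus control, 22 of the 26 markers had positive log2 fold changes (56.9% of all genes did), with a median of 0.47. In combination versus doxorubicin 24 of 26 did (58.6% of all genes), with a median of 0.62. The median in doxorubicin versus control was -0.16. With the marker mean as a covariate in edgeR, the medians in combination versus control were 0.37 for the glycolysis members and 0.41 for the other HIF-response members, and in doxorubicin versus control 0.31 and 0.28. With the most marker-rich library of each group left out, which leaves 2 libraries a group, they were 0.41 and 0.46 in combination versus control and 0.40 and 0.42 in doxorubicin versus control. Leukocyte markers also varied. All 8 monocyte markers were detected in all libraries, with a mean log2 CPM of 8.43, 7.75 and 7.01 in the combination, 6.77, 7.98 and 7.76 in doxorubicin and 7.45, 6.79 and 6.59 in control, and a summed level of 1622 to 4309, 2767 to 3714 and 2413 to 3837 CPM in those groups. In combination versus control, 5 of these 8 had positive log2 fold changes. Plac8 and Ly6c2 passed the study's thresholds higher there (1.46% of all genes did) and F13a1 lower (0.708% did). The 10 macrophage markers, none at 0, summed to 6142 to 13727, 8551 to 15995 and 8748 to 18233 CPM. Positive log2 fold changes were found for 0 of these 10 in the combination against control and against doxorubicin (56.9% and 58.6% of all genes). Their medians were -0.47 and -0.53, and 0.07 in doxorubicin versus control. The 10 neutrophil markers, some at 0 in a library, summed to 87.0 to 460, 107 to 678 and 152 to 343 CPM. Over the 9 tested, the median log2 fold change was 0.64 in combination versus control and -0.52 in combination versus doxorubicin. In doxorubicin versus control it was 1.37. Il1r2 passed the thresholds higher and Mmp9 lower in combination versus control (1.46% and 0.708% of all genes did). Markers of other cell types varied as well. The 10 T cell markers, none at 0, summed to 6.91 to 48.2 CPM in the combination, 9.29 to 104 CPM in doxorubicin and 6.495 to 22.8 CPM in control. In combination versus control 10 of 10 had positive log2 fold changes (56.9% of all genes did), with a median of 0.63. In combination versus doxorubicin 1 of 10 did (58.6% of all genes), with a median of -0.92. In doxorubicin versus control all 10 had positive log2 fold changes (48.9% of all genes did), with a median of 1.68. The study's thresholds were passed there by 4 of them (Cd8a, Cd3g, Cd3d and Trbc2, beside 0.36% of all genes called higher). The 10 endothelial markers, none at 0, summed to 76.3 to 124 CPM, 78.8 to 147 CPM and 61.6 to 82.5 CPM in those groups. In doxorubicin versus control their log2 fold changes ran from -0.49 to 1.08, with a median of 0.65. Emcn, Robo4 and Plvap passed the thresholds there, beside 0.36% of all genes called higher. In combination versus doxorubicin 2 of the 10 had positive log2 fold changes (58.6% of all genes did). The 8 keratinocyte markers summed to 3.23 to 55.4 CPM, 2.51 to 9.42 CPM and 1.83 to 6.00 CPM. In combination versus control, 4 of the 5 tested (Krt1, Krt5, Krt10 and Krt14) passed the thresholds, beside 1.46% of all genes called higher. Of these, Krt1, Krt5 and Krt14 were at 0 in 4 or 5 of the 9 libraries. The part of these cell types in the member values was not tested.

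**Figure D5:**
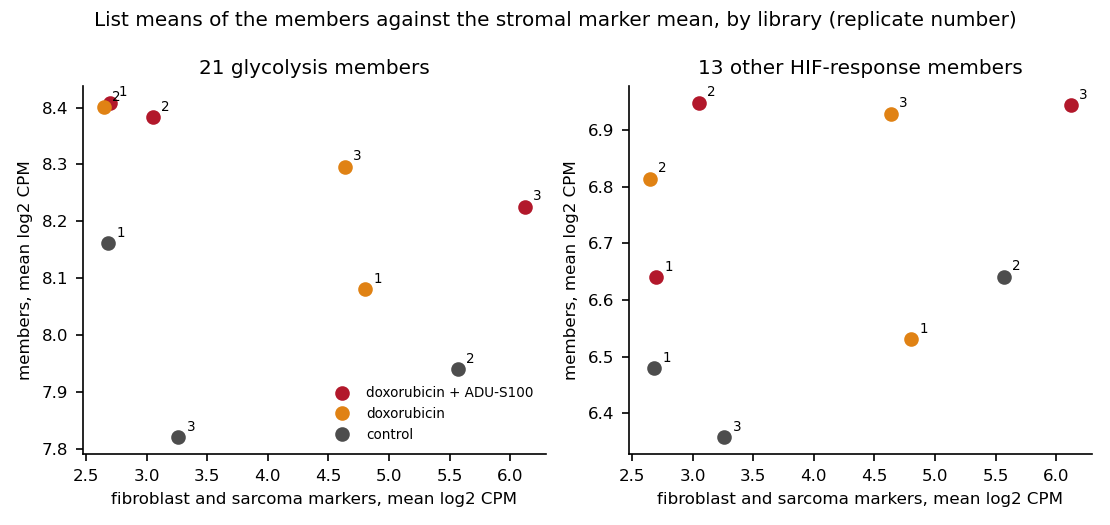
Mean log2 CPM of the glycolysis members (left) and of the other HIF-response members (right) in each library against the mean log2 CPM of 26 fibroblast and sarcoma markers; colors give the group and numbers the replicate. The marker means span 2.65 to 6.12 and both high and low values occur in each group, while the lowest list means, 7.82 and 6.36, belong to control replicate 3.

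Beyond the 34 members, 27 further genes of glycolysis and gluconeogenesis were examined, of which 22 were tested. Their median log2 fold change was 0.04 in combination versus control, -0.03 in combination versus doxorubicin and 0.02 in doxorubicin versus control, near the medians of all genes. Tested by edgeR, 0 of 22 passed the study's thresholds or an adjusted p under 0.05 in combination versus control, and 1 had an unadjusted p under 0.05 (Bsg, the chaperone of the lactate transporters, which was higher, beside 2.83% of all genes). Bsg and Eno1b had all combination libraries above control (4.39% of all genes did). Fbp1, the gluconeogenic fructose bisphosphatase, and Pfkfb2 had all of them below control (3.95% of all genes did).

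Of 41 further hypoxia-response genes, 40 were tested, with medians of 0.30 in combination versus control, 0.17 in combination versus doxorubicin and 0.09 in doxorubicin versus control. In combination versus control, 5 of them had an unadjusted p under 0.05 and were higher (Mxi1, Siah2, Vhl, Fam162a and Jmjd6, beside 2.83% of all genes), and 1 was lower (Epas1, beside 1.61%). Vhl, the ubiquitin ligase component that removes hydroxylated HIF alpha, had 48.6, 45.9 and 37.1 CPM in the combination libraries, 28.8, 36.9 and 39.4 CPM in the doxorubicin libraries and 33.2, 26.0 and 31.5 CPM in the control libraries. All its combination libraries lay above control, at a log2 fold change of 0.54 (SE 0.19). Siah2, a ligase that destroys prolyl hydroxylases, had 35.7, 37.7 and 29.7 CPM in the combination libraries, 23.6, 25.6 and 25.3 CPM in the doxorubicin libraries and 25.2, 23.4 and 26.9 CPM in the control libraries, with all combination libraries above both other groups. Igfbp3, which encodes a binding protein of insulin-like growth factors, was the 1 gene of the list past the study's thresholds in doxorubicin versus control. At those thresholds 0.36% of all genes were called higher there and 0.0916% lower. Igfbp3 had 118, 69.1 and 168 CPM in doxorubicin and 39.1, 42.4 and 64.4 CPM in control, with a log2 fold change of 1.28 (SE 0.54).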

How the data were processed

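RNA from CD45+ cells isolated from WEHI-164 grafts was sequenced in 9 libraries, 3 per group, with an Illumina poly(A) stranded kit with paired reads of 100 bases. The labels name an RNeasy extraction and the methods a TRIzol one. The deposited values are gene counts, whole numbers without normalization, which the authors obtained with StringTie (2.1.3b) after trimming by Trimmomatic (0.38) and HISAT2 (2.1.0) alignment to mm10. The strand setting of the counting is not given in the sources used here, so overlapping genes on opposite strands may not be separated. The submitters' processing notes also name SAMtools (1.9).

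The 34 members and all other lists were chosen with earlier results of these data known. Counts of all 9 libraries were fitted in 1 model of group means with edgeR's quasi-likelihood test (edgeR 4.0.16, limma 3.58.1, R 4.3.3), TMM scaling and filterByExpr, which kept 16373 of 45777 genes. P-values are two-sided, with Benjamini-Hochberg adjustment over all genes tested. CPM values are TMM-scaled, and log2 CPM used a prior count of 2. Standard errors are the log2 fold change over the root of the F statistic. No pair of libraries was identical (0 pairs), and the least different pair differed in 19719 genes. Values per library were written out for the members whose groups did not overlap and for at least 1 member of each role, and the other members are given as ranges. Genes of the other lists were named when they passed the thresholds, or where counts were of 5 genes or fewer, in which case they were chosen after their values were seen. Alternatives were DESeq2 (1.42.0), RLE factors, no filter, a filter at CPM 1 in 3 libraries, limma-voom with quality weights, a model of only the 2 groups compared, a replicate block, omission of mitochondrial and haemoglobin genes, a fibroblast covariate, omission of the most fibroblast-rich library of each group and omission of each library. Scaling by library size only was added after the TMM factors were seen. The tests were tried on simulated counts. Promoters are from RefSeq (GRCm38) and transcript lengths from GENCODE M21. All 34 members matched RefSeq by gene ID.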

Additional observations from a re-analysis of the deposited data

How the results depend on the processing

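In the alternatives run, 0 of 34 members had an adjusted p under 0.05. Of all genes, DESeq2 called 27 in combination versus control, 9 in combination versus doxorubicin and 2 in doxorubicin versus control. Each other alternative called at most 1 gene in a comparison. The glycolysis median in combination versus control was 0.17 with library size only, against 0.36, while the median of all genes was -0.11, against 0.06. The other HIF-response median in combination versus doxorubicin was -0.045 with 2 libraries a group, against 0.20, and the glycolysis median there was -0.037 with library size only and -0.0028 without doxorubicin replicate 1, against 0.10, so neither direction is settled. In doxorubicin versus control the glycolysis median was 0.20 to 0.47 when single libraries were left out, the highest without doxorubicin replicate 1. Members past the study's thresholds, 0 in each comparison, became 2 (Vegfa at 1.02 and Egln3 at 1.08 on the log2 scale, beside 4.37% of all genes) with 2 libraries a group in combination versus control and 0 to 1 when single libraries were left out (Egln3 without control replicate 2, beside 2.9%, or combination replicate 1, beside 1.53%, and Slc16a3 without combination replicate 3, beside 5.36%). In combination versus doxorubicin the count was 1 (Adm, beside 3.5%) with limma-voom and 0 to 1 when single libraries were left out (Adm without combination replicate 2, beside 1.68%), and in doxorubicin versus control it was 1 (Egln3, beside 1.84%) with 2 libraries a group. The causes of these changes were not tested. Same-numbered libraries did not deviate together (correlations of -0.60 to 0.38, 3 of 9 over 0.1), so the numbers were not taken as pairs. With a replicate block the glycolysis and other HIF-response medians were 0.37 and 0.41 in combination versus control, and 0.12 and 0.20 in combination versus doxorubicin. For doxorubicin versus control the block gave 0.30 and 0.26, and 0 members were called. At an unadjusted p under 0.05, 5 members were higher in combination versus control with the block (beside 2.01% of all genes), against 8 without it. Each member had 128 or more counts in each library, and counting error was not compared with the spread between libraries.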

Other observations

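The 13 genes of the pentose phosphate pathway and glycogen metabolism, which divert glucose 6-phosphate to NADPH and ribose or to storage, had a median log2 fold change of 0.05 in combination versus control, 0.03 in combination versus doxorubicin and 0.10 in doxorubicin versus control. Log2 fold changes were positive for 8 of 13, 7 of 13 and 10 of 13 in these comparisons, beside 56.9%, 58.6% and 48.9% of all genes tested. By edgeR, 0 of 13 had an unadjusted p under 0.05 in combination versus control. G6pdx, the entry enzyme of the pentose phosphate pathway, had 145, 119.7 and 103 CPM in the combination libraries, 91.6, 129 and 121 CPM in the doxorubicin libraries and 138, 101 and 99.9 CPM in the control libraries, with overlapping groups. Tkt, transketolase, had 280.5, 272 and 319 CPM in the combination libraries, 222, 370.4 and 313 CPM in the doxorubicin libraries and 265, 234 and 344 CPM in the control libraries, also with overlapping groups.

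Some further hypoxia-response genes were high in libraries of each group that were rich in fibroblast and sarcoma transcripts, and the member Car9 was likewise highest in combination replicate 3. Lox, a collagen cross-linking enzyme, had 6.00, 8.10 and 175 CPM in the combination libraries, 44.7, 6.15 and 38.5 CPM in the doxorubicin libraries and 5.94, 91.6 and 7.19 CPM in the control libraries. Plod2, a collagen lysyl hydroxylase, had 5.75, 5.81 and 98.8 CPM in the combination libraries, 31.9, 5.47 and 28.9 CPM in the doxorubicin libraries and 5.25, 48.0 and 8.43 CPM in the control libraries. In both genes combination replicate 3 and control replicate 2 were the highest libraries, and doxorubicin replicates 1 and 3 came next. Angptl4, a secreted regulator of lipid uptake, had 10.5, 11.7 and 85.6 CPM in the combination libraries, 18.5, 11.2 and 29.3 CPM in the doxorubicin libraries and 7.00, 33.8 and 16.6 CPM in the control libraries, highest in combination replicate 3 as well. Lox, Plod2 and Angptl4 were named after their values were seen.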
